A study of Mus musculus with 2 samples.

Results

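The genes described here are p53 target genes and genes of the apoptosis machinery, chosen by name. The list holds 30 genes, of which 28 had a probe set paired with that gene alone, among 18194 genes named on an Affymetrix Mouse 430 2.0 array. Of the 28 genes, 26 had a signal above background on at least 1 array, and these are compared among 13533 measured genes. Total RNA came from the cerebrum of P14 mice, from 1 wild-type sample and 1 sample of the mutant. The mutant is laggard (lag), a recessive mutation that arose spontaneously and lies at a splice acceptor site of Kif14, which encodes a mitotic kinesin needed for cytokinesis. The mutation is carried in every cell, was linked to DBA/2N chromosome and had been backcrossed to C57BL/6J, and the wild-type control was a littermate. Each genotype had 1 array and the sources used here do not give the number of mice behind each sample, so there was no replicate and no test was possible. Every difference below is one between these 2 arrays. In a piece of whole cerebrum, fewer cells of a type and less RNA per cell cannot be told apart.

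p53 is a transcription factor that is held low by the ubiquitin ligase Mdm2 and becomes stable when DNA is damaged or cell division fails. Its targets include brakes on the cell cycle, DNA repair and stress genes, and proteins of the BCL2 family that act at mitochondria. Pro-apoptotic BCL2 proteins open the outer mitochondrial membrane, anti-apoptotic members hold them in check, and released cytochrome c lets Apaf1 activate Casp9, which in turn starts the rest of the caspase cascade. Neural progenitors and young neurons are known to use this mitochondrial route during brain development.

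p53 binds DNA through a pair of short elements, so the promoter stretches that hold such an element are shown for 5 of the targets, with each match to the p53 half-site decamer in capitals, or, where a full site was found, both of its parts in capitals with at most 1 mismatch. The letters come from RefSeq, build GRCm38.p6, and run 5′ to 3′ on the gene's strand. All end before the start site of the window used except that of Gtse1, whose site begins 1 base before the start and lies mostly after it. Aen has another start in RefSeq, and counted from that start the same half-site begins at base 11 after it.
Cdkn1a, chr17:29090876-29090967, plus strand: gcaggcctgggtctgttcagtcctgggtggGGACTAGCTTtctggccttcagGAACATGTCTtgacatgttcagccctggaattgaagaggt
Mdm2, chr10:117710905-117710974, minus strand: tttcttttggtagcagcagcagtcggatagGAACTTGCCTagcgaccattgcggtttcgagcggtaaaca
Ccng1, chr11:40755432-40755511, minus strand: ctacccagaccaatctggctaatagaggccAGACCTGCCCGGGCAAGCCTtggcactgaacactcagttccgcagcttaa
Aen, chr7:78895907-78895976, plus strand: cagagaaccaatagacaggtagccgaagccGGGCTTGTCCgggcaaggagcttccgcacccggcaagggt
Gtse1, chr15:85859915-85859964, plus strand: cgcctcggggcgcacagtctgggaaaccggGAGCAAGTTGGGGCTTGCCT
Windows of 250 bases before and 50 bases after each start site were searched on both strands, and 25 members had at least 1 window. A half-site lay in the windows of 8 members, Cdkn1a, Mdm2, Ccng1, Aen, Ei24, Gtse1, Bax and Trp53, while 9.55% of 27025 genes held one. A full site, meaning 2 adjoining half-sites with a spacer of at most 13 bases and at most 1 mismatch, lay in the windows of Cdkn1a, Ccng1, Gtse1 and Bax, against 1.24% of all genes. The Cdkn1a site in capitals is the pair with the fewest mismatches, 0, and a spacer of 12 bases. It began 73 bases before the RefSeq start of that window. Its second part and the bases right after it also form a full site, with 1 mismatch and no spacer. Mismatches were ranked before spacer length, so the capitals do not say which pair p53 binds, and that was not tested. The mismatch limit was set after matches in these promoters had been seen. Among measured p53 targets with a window, 4 of 6 with a half-site and 5 of 5 without one had a higher mutant signal. Of all 13533 measured genes, 51.8% did. Both counts include a gene that could only be higher. These were Gtse1, with a half-site, and Eda2r, without one, above background on the mutant array alone. Bbc3 also had no half-site in its windows, and Pmaip1 had no window. Whether a half-site goes with a difference in signal was not tested.

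Most p53 target genes measured on both arrays had a slightly higher signal in the mutant. A signal was counted as measured when it exceeded 56.1. This background level was taken from probe sets of genes such as olfactory receptors, which were assumed not to be transcribed in brain. Eda2r and Gtse1 exceeded it on the mutant array alone and so could only be higher, and they are left out of the counts and medians that follow unless named. Of the 14 genes listed as p53 targets alone, 10 were above background on both arrays, 7 with a higher and 3 with a lower signal in the mutant. Their median log2 ratio of mutant over wild-type was 0.18, with a range from -0.23 to 0.67, and the median of all 12715 genes above background on both arrays was 0.01. Over all 24 such members, 17 were higher in the mutant (70.8%), against 51.4% of the 12715 genes (51.8% of the 13533 genes above it on at least 1 array). At a difference of at least 2-fold, 1 of the 24, Pmaip1, was higher, against 0.543% of the 12715 genes. Eda2r also passed 2-fold as a bound, which makes 2 of 26 members against 0.628% of the 13533 genes, 1 of them having entered through the array on which it was high. Both calls rest on the background level, since neither gene was measured with a level of 156 or 175. By the probe sets used, 0 members were at least 2-fold lower, against 0.946% of the 13533 genes. At a difference of at least 1.5-fold, 3 of the 24 were higher, Pmaip1, Bbc3 and Cdkn1a, against 3.38% of the 12715 genes, and with Eda2r 4 of 26, against 3.9% of the 13533 genes. With the same probe sets, 0 members were at least 1.5-fold lower, against 3.27% of the 13533 genes. Where Bbc3, Pmaip1 and Apaf1, which are also p53 targets, are counted with the targets, 10 of 13 were higher with a median log2 ratio of 0.21. The 11 other measured members had a median log2 ratio of 0.07, with 7 higher.

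Markers of several cell types differed between the same arrays. Oligodendrocyte markers were at least 2-fold lower in the mutant in 5 of 5 genes above background on both arrays, with summed signals of 31775 in the wild-type against 2259 over all 7 measured markers, of which Mog and Mobp were under the background level in the mutant. Microglial markers were higher in 7 of 9, with summed signals of 9703 and 12033, and pericyte and meningeal fibroblast markers in 6 of 7, with 13219 and 15768. Markers of dividing cells were higher in 1 of 7, with summed signals of 1969 and 1769. Neuronal markers, which mark the tissue as brain, were higher in 3 of 6, at 69370 and 69830 in sum. Astrocyte markers were higher in 2 of 7, at 43219 and 38854 in sum, with Gfap going against the sum at 156 and 274. The part of these cell populations in the ratios of Cdkn1a, Eda2r, Pmaip1, Bbc3 and Bcl2 was not tested. Glucocorticoid response genes were higher in 3 of 7, with Fkbp5 at 732 and 1217, and endothelial markers in 2 of 7. Kif14 was at 6.85 and 0.733 on its only probe set, under the background level on both arrays, so its level gives no check of the genotype labels.

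**Figure D1:**
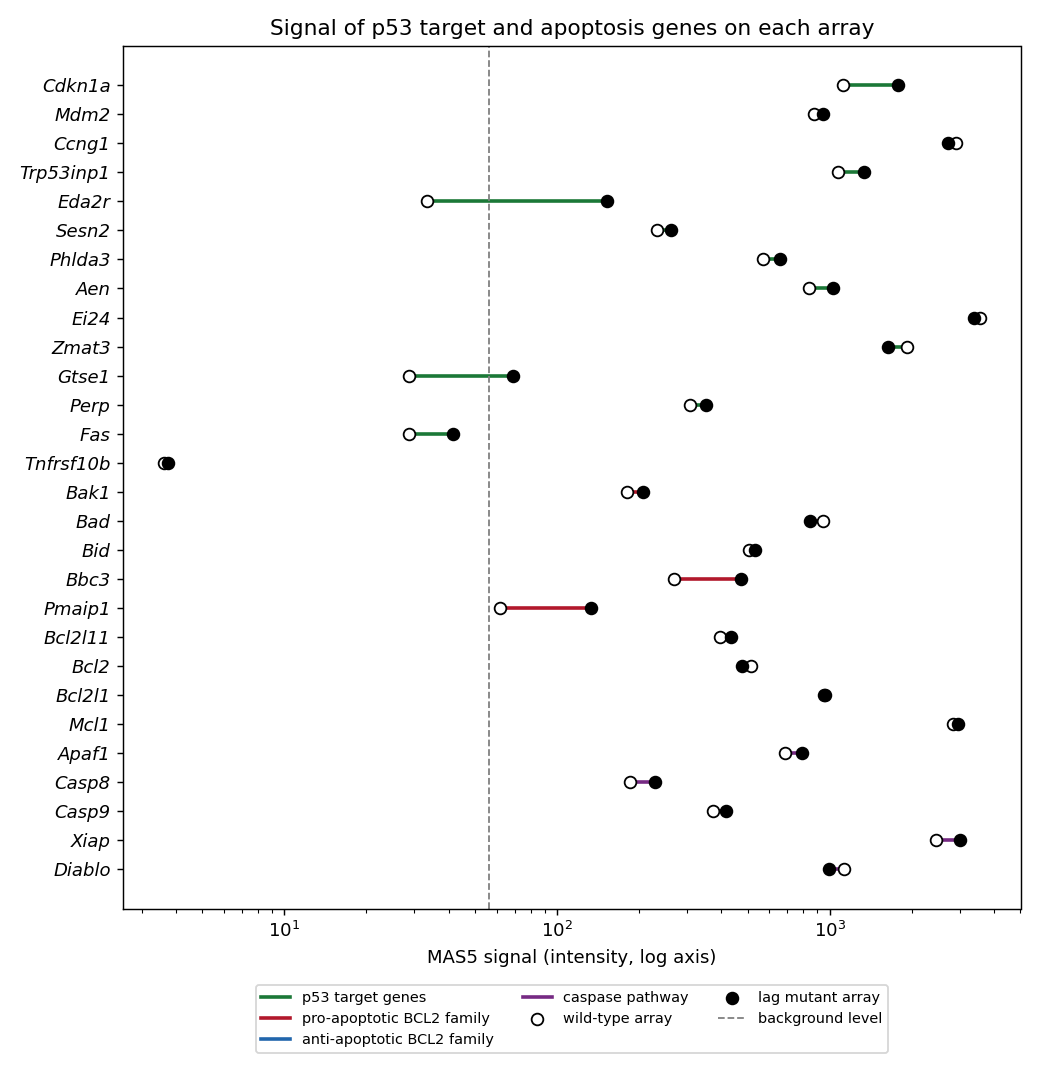
MAS5 signal (intensity, log axis) of the 28 genes with a probe set of their own on the wild-type array (open circles) and the lag mutant array (filled circles), 1 array per genotype, with lines coloured by gene group and the dashed line at the background level of 56.1. Most pairs of circles lie close together, and Eda2r, Gtse1, Pmaip1, Bbc3 and Cdkn1a show the wider gaps.

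Cdkn1a, which encodes the cyclin-dependent kinase inhibitor p21 and is the best known target of p53, gave 1120.3 on the wild-type array against 1778 on that of the mutant, a 1.59-fold higher signal. A second Cdkn1a probe set gave 466 and 624 (wild-type first here and in all pairs of signals), so both were higher in the mutant. Of all measured genes, 2.73% were at least as high in ratio, and of the 3383 genes in its own signal group, the brightest of 4 by size of signal, 0.68% were. The spread of ratios narrowed with signal, the standard deviation of the log2 ratio over genes being 0.44 in the dimmest of 4 groups of genes by signal and 0.26 in the brightest. Eda2r, a death receptor of the TNF receptor family that binds ectodysplasin A2, stood at 33.2 on the wild-type array, under the background level, and at 152 on the mutant array. With the wild-type raised to the background level, Eda2r was at least 2.71-fold higher. It was measured by 1 probe set, in the range where ratios scatter most. Gtse1, a microtubule-associated protein that restrains p53 in dividing cells, had signals of 28.7 and 68.8, which gave at least 1.23-fold higher in the mutant. Its mutant signal lay only slightly above the background level.

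The other measured targets were above background on both arrays and differed little. Trp53inp1, a nuclear protein that promotes p53 activity, had signals of 1075 and 1340, 1.25-fold higher. Aen, an exonuclease that cuts nucleic acid during apoptosis, had signals of 841 and 1031, 1.23-fold higher. Of its 4 probe sets, 3 were higher and 1, at 57.7 and 17.5, was lower. Phlda3, which competes with Akt for membrane lipids, had signals of 568 and 659, 1.16-fold higher. Phlda3 lies on chromosome 1 with Kif14, with 14 protein-coding genes between them, so a difference there cannot be told apart from DNA linked to the mutation. Perp, a tetraspan membrane protein of desmosomes, had signals of 307 and 352. Sesn2, a stress protein that restrains mTORC1, had signals of 233 and 261, and its second probe set was higher as well at 56.6 and 68.7. Mdm2 itself, the ubiquitin ligase that is both inhibitor and target of p53, had signals of 874 and 949, 1.09-fold higher, and 213 and 210.5 on its second measured probe set. Mdm2 thus differed by less than the middle 50% of genes scatter, whose log2 ratios ran from -0.15 to 0.17.

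Targets with a lower mutant signal were Zmat3, Ccng1 and Ei24. Zmat3, an RNA-binding zinc finger protein, had signals of 1924 and 1640, 1.17-fold lower, the lowest ratio of the group. Ccng1, which encodes cyclin G1 and recruits a phosphatase to Mdm2, had signals of 2911 and 2720 by its brightest probe set, 1.07-fold lower. Its other probe sets went the opposite way, at 242 and 313 and at 682 and 720. Ei24, a membrane protein of the endoplasmic reticulum, had signals of 3552 and 3383. The death receptors Fas and Tnfrsf10b were under the background level on both arrays, Fas at 28.7 and 41.4 and Tnfrsf10b at 3.62 and 3.75, so neither was measured. Trp53 itself and Bax, a pore-forming BCL2 protein, are not analysed here.

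**Figure D2:**
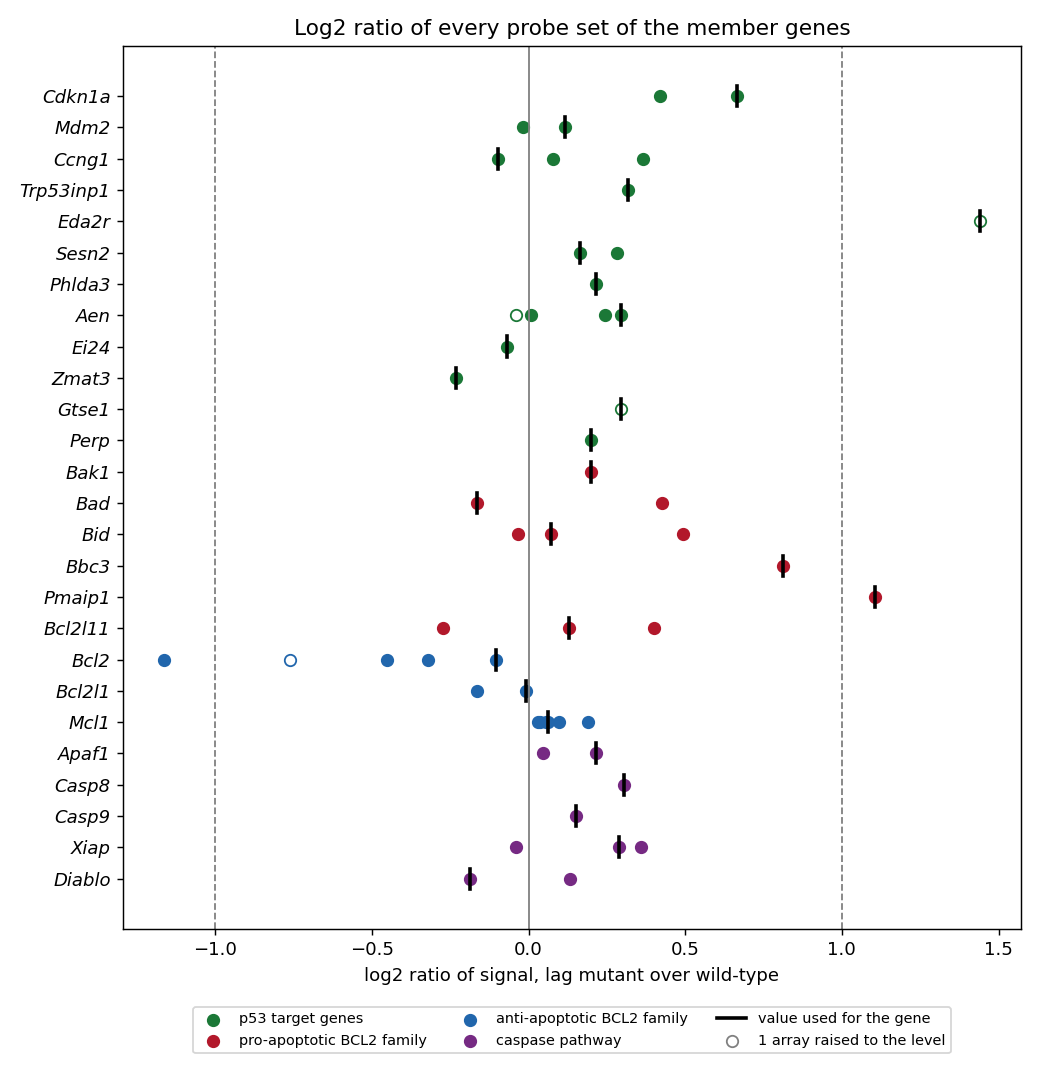
Log2 ratio of signal, mutant over wild-type, of every measured probe set of the 26 measured genes, with points coloured by gene group, black bars at the value used for the gene, open circles where 1 array was raised to the background level and dashed lines at 2-fold. All 5 Bcl2 probe sets lie left of 0 and all 6 Mcl1 probe sets right of it, and in 8 genes the probe sets lie on both sides.

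Among pro-apoptotic BCL2 genes, the BH3-only genes that p53 induces had the largest ratios. Pmaip1, which encodes Noxa, a BH3-only protein that neutralises Mcl1, had signals of 62.0 and 133, 2.15-fold higher in the mutant. Its wild-type signal was just above the background level. Bbc3, which encodes Puma, a BH3-only protein that binds every anti-apoptotic BCL2 protein, had signals of 269 and 472, 1.75-fold higher, and 1.39% of measured genes had as high a ratio. Each of these genes was measured by 1 probe set. The remaining pro-apoptotic genes were nearly level. Bak1, a pore-forming protein of the mitochondrial membrane, had signals of 180 and 207. Bid, which links death receptors to mitochondria, had signals of 505 and 531 by the probe set used, and its 3 probe sets were split, 2 higher and 1 lower. Bcl2l11, which encodes Bim, had signals of 396 and 433, with 397 and 329 on a probe set of nearly the same brightness, so its direction depends on the probe set. Bad, a BH3-only protein switched off by Akt phosphorylation, had signals of 949 and 847, 1.12-fold lower, and its second probe set was 1.34-fold higher at 488 and 655. Of 6 measured genes of the group, 5 were higher (83.3%), against 51.4% of the 12715 genes above background on both arrays. Their median log2 ratio was 0.17.

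The anti-apoptotic genes had a median log2 ratio of -0.01. Bcl2, the founding member that guards mitochondria, had signals of 514 and 478 by its brightest probe set, 1.08-fold lower. Bcl2 was lower on every one of its 5 probe sets, from 1.08-fold to 2.24-fold. The widest gap was on a probe set at 169.5 and 75.7. Of the other 3, a pair stood at 142 and 104 and at 219 and 175, and the dimmest was under the background level on the mutant array alone. Averaged over its probe sets, the log2 ratio of Bcl2 was -0.56. Bcl2 also lies on chromosome 1, with 168 protein-coding genes between it and Kif14, and linked DNA cannot be told apart from an effect of the mutation there either. Bcl2l1, which encodes Bcl-xL, the main survival protein of neurons, had signals of 961 and 956, and its other measured probe set stood at 204 and 182. Mcl1, a short-lived survival protein needed by neural progenitors, had signals of 2842 and 2965, and each of its 6 probe sets was higher by 1.02-fold to 1.14-fold. By the values used each of these 3 genes differed by at most 1.08-fold between the arrays, and of their measured probe sets 1, of Bcl2, had a gap of at least 2-fold.

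Of 5 caspase pathway genes, 4 were higher in the mutant, by 1.11-fold to 1.24-fold, and Diablo was lower. That is 80.0% higher, against 51.4% of the 12715 genes above background on both arrays. Casp8, the initiator caspase of death receptors, had signals of 186 and 229, 1.24-fold higher. Casp8 too is on chromosome 1, with 492 protein-coding genes between it and Kif14, so linked DNA cannot be told apart from the mutation. Casp9, the initiator caspase of the mitochondrial route, had signals of 375 and 417, 1.11-fold higher. Apaf1, the scaffold of the apoptosome, had signals of 684 and 795, 1.16-fold higher, and its second probe set 149 and 154. Xiap, which inhibits caspases, had signals of 2451 and 2996, 1.22-fold higher, on the brightest of 3 measured probe sets, 1 of which was lower. Diablo, the mitochondrial protein that relieves that inhibition, had signals of 1130 and 992, 1.14-fold lower, and its second probe set was higher at 68.2 and 74.7. The median log2 ratio of the 5 genes was 0.22.

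**Figure D3:**
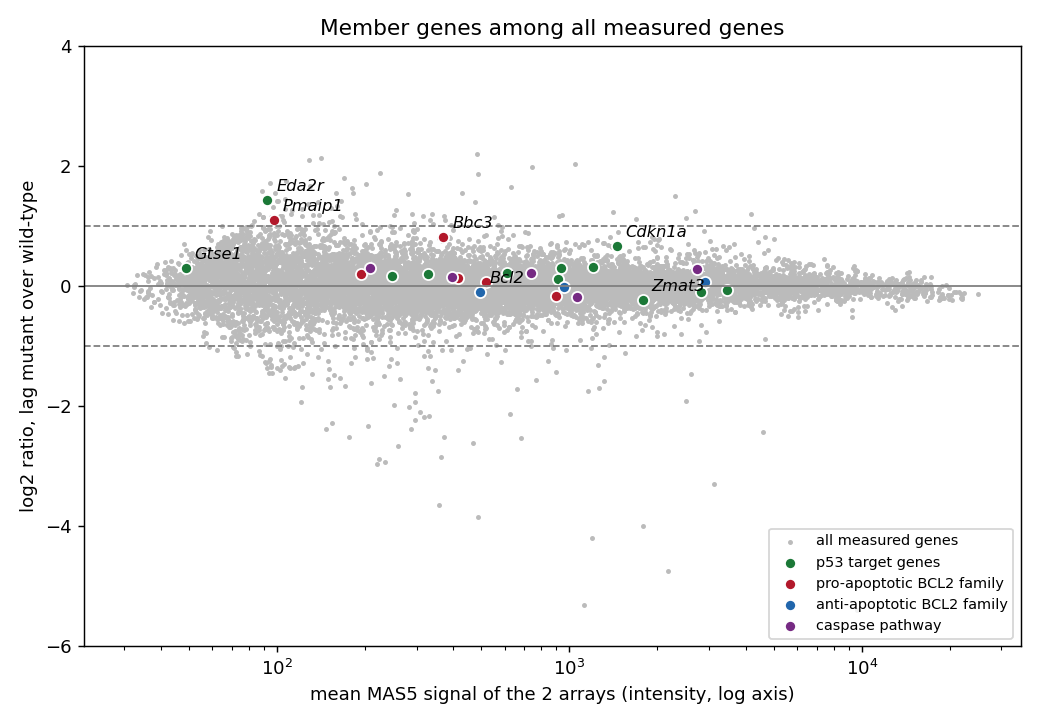
Log2 ratio, mutant over wild-type, against the mean MAS5 signal of both arrays (log axis) for all 13533 measured genes (grey) and the 26 measured members (coloured by gene group), with dashed lines at 2-fold. Grey points spread more widely at low signal, where Eda2r and Pmaip1 lie above the upper line, and Bbc3 and Cdkn1a lie between 0 and that line at higher signal.

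Every probe set of the members was also counted on its own. Of 69 probe sets paired with a member, 53 were above background on at least 1 array, and 49 on both arrays. Of the 49, 34 were higher and 15 lower in the mutant. No share over all probe sets of the array was computed to set beside this count. Genes with many probe sets weigh more in it, as does Mcl1 with 6, all higher. Of 14 genes with 2 or more such probe sets, 6 had all of them in one direction and 8 did not, namely Mdm2, Ccng1, Aen, Bad, Bid, Bcl2l11, Xiap and Diablo, Aen through a probe set that was above background on the wild-type array alone. Cdkn1a, Sesn2, Apaf1 and Mcl1 were higher and Bcl2 and Bcl2l1 lower on every measured probe set.

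Genes of the same pathways outside the member list were compared to give the surroundings. These lists were chosen with earlier results of these data known, so their counts are not independent of the values. Of the 12715 genes above background on both arrays, 51.4% were higher and 0.543% at least 2-fold higher, and the counts of these lists stand beside those shares. Of 30 measured further p53 targets, 24 were higher (80.0%), with a median log2 ratio of 0.23, and 2 were at least 2-fold higher (6.67%). Ephx1, the microsomal epoxide hydrolase, had signals of 306 and 959, 3.13-fold higher, and it too lies on chromosome 1 with 342 protein-coding genes between it and Kif14. Dcxr, a reductase of dicarbonyl compounds and L-xylulose, had signals of 176 and 404, 2.30-fold higher. The brightest of the further targets differed little, with Plk2, a polo-like kinase, at 3663 and 4139, Crip2, a LIM-domain protein, at 3991 and 4705, and Abhd4, a lipase, at 3303 and 3510. Of the regulators of p53, 6 of 15 were higher and 9 lower, with a median log2 ratio of -0.09. Among them Trp53bp1, a mediator of double-strand break repair, had signals of 6269 and 5418, Hipk2, a kinase that phosphorylates p53, 3429 and 2198, and Usp7, the protease that deubiquitinates Mdm2 and p53, 2518 and 2608.

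Of further BCL2 family genes above background on both arrays, 5 of 6 were higher with a median log2 ratio of 0.17. The brightest were Bcl2l2, which encodes the survival protein Bcl-w, at 1488 and 1801, Bok, a pore-forming protein encoded on chromosome 1 with 199 protein-coding genes between it and Kif14, at 896 and 1154, and Bnip3, a mitophagy receptor, at 4280 and 4444. Of further caspases, 4 of 5 were higher with a median log2 ratio of 0.28, with Casp2 at 460 and 448, the effector Casp6 at 190 and 237, and Casp14, a caspase of the epidermis, at 85.2 and 164. In the death receptor pathway 5 of 7 genes above background on both arrays were higher, led in brightness by Tnfrsf21, which encodes DR6, at 1847 and 1803. Tnfrsf1a, the TNF receptor, had signals of 311 and 521, 1.68-fold higher, and Daxx, a histone chaperone that binds Fas, 489 and 611. Of the IAP family, the caspase inhibitors related to Xiap, 3 of 5 were higher, with Birc2 at 880 and 805, Birc5 at 220 and 212 and Birc6 at 1770 and 1845. Of the mitochondrial and execution factors 5 of 12 were higher, with Cycs, which encodes cytochrome c, at 15458 and 15710, and the channels Vdac1 at 9892 and 9471 and Vdac2 at 6909 and 6227. In all, 52 of 80 genes of these 7 lists that were above background on both arrays were higher (65.0%), against 51.4% of the 12715 genes. Their median log2 ratio was 0.08, against 0.01 for the 12715.

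**Figure D4:**
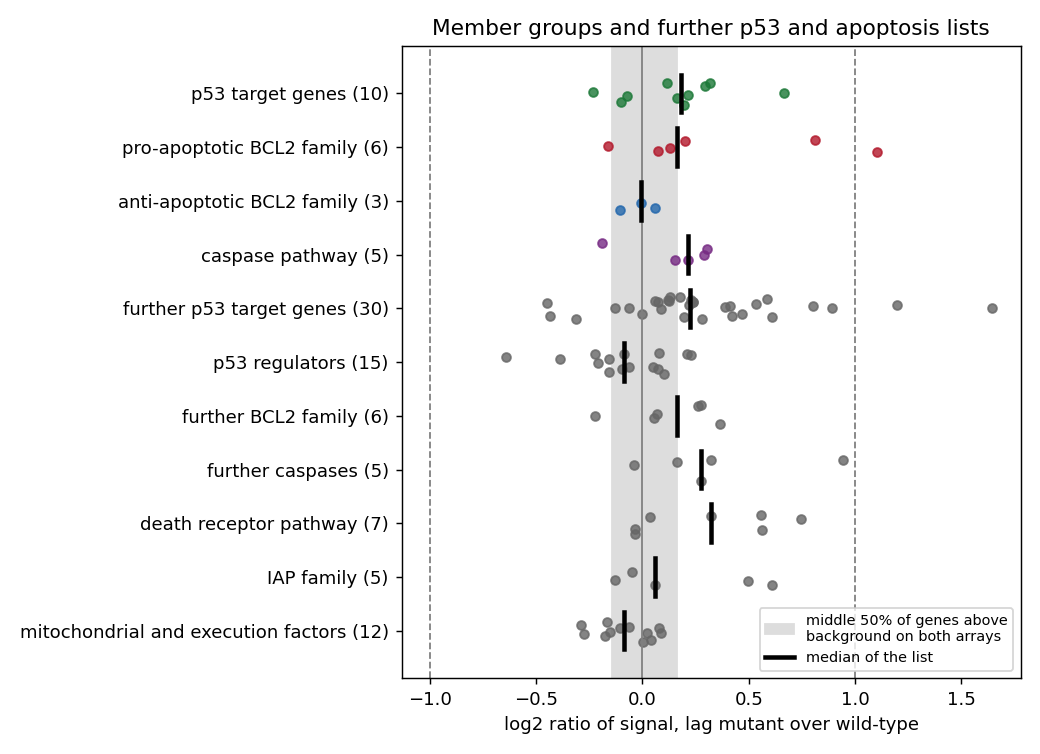
Log2 ratio, mutant over wild-type, of each gene above background on both arrays in the 4 member groups (coloured) and the 7 further lists (grey), with the number of genes in brackets, black bars at list medians and a grey band over the middle 50% of all genes above background on both arrays. The medians of both p53 target lists, both caspase lists and the death receptor pathway lie beyond the right edge of the band. Left of 0 lie the medians of p53 regulators, of mitochondrial and execution factors and, at -0.007, of the anti-apoptotic BCL2 family.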

How the data were processed

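RNA of P14 cerebrum was measured on 1 array per genotype. The authors computed MAS5.0 signals with global scaling to a target that no source here names. What was deposited is a linear intensity per probe set, with no detection call. Depth does not apply, and precision is limited by the number of arrays. The platform annotation gave 34958 probe sets a single gene, 932 several genes and 9211 no gene, and genes were named from the single-gene probe sets. Their symbols were brought up to date through the RefSeq table of GRCm38.p6, where 34754 matched. A gene took its probe set of highest mean signal. Signals under the background level were raised to it, which makes a ratio a bound, and a gene under it on both arrays was not measured. The level was the higher of the 95th percentiles of 154 probe sets of olfactory, vomeronasal, taste and trace amine receptors, keratin-associated proteins and defensins, 56.1 (wild-type array) against 50.8 (mutant array). These families, and the use of 1 level for both arrays, were settled after the members' signals had been seen and 5 family definitions tried. Members, lists and the promoter search were chosen with earlier results of these data known. Named further genes were those at least 2-fold different and the 3 of highest mean signal in each list. Alternatives changed the probe set, the normalization, the background and the fold. Python 3.11.15, numpy 2.4.6 and pandas 2.3.3 were used, and the scoring was tested on simulated data.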

Additional observations from a re-analysis of the deposited data

How the results depend on the processing

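With 1 array per genotype and no detection calls, ratios of dim genes such as Eda2r, Pmaip1 and Gtse1 are the least certain, and no count here carries an error. No paired analysis was possible because there is a single sample of each kind. Over 353 combinations of a member and an alternative, 338 log2 ratios stayed within 1 SD of the ratios of genes of like signal and 15 moved further. That limit is wider than most member ratios, so a ratio that changed sign could count as staying, as Mdm2 did from 0.118 to -0.019. A difference of at least 2-fold was turned round in 0 combinations. Only Eda2r and Pmaip1 had such a difference, each with 1 probe set, so no choice of probe set could turn it. With the probe set of largest decrease, 1 member, Bcl2, was at least 2-fold lower, the median log2 ratio of all members was 0.038 and that of the anti-apoptotic genes -0.17, and 261 of all genes were at least 2-fold lower. With the probe set of largest increase, 143 of all genes were at least 2-fold higher. With the 90th percentile as the background level 145 genes were higher. With the 99th percentile, a level of 156, Eda2r and Pmaip1 were not measured, 0 members were at least 2-fold higher, and 31 genes were higher and 67 lower. The first family definition that was tried, of 295 probe sets with keratins, digestive enzymes, serine proteases and milk proteins, some of them expressed in brain, gave a level of 175, 0 members at least 2-fold higher, and 29 genes higher and 60 lower. The other 3 definitions, with levels of 45.9 to 52.9, gave Eda2r and Pmaip1 as at least 2-fold higher. The family definitions and the next pair of settings were added after seeing the data. Without genes measured as a bound or under 100 on both arrays, 1 member, Pmaip1, was at least 2-fold higher, and over the genes above background on both arrays it was 1 member as well. With signals as deposited, 3 members were, with Gtse1, and 1232 genes were higher and 980 lower. At 1.5-fold, 4 members were higher, and 528 genes were higher and 442 lower.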
